A study of Oryza sativa with 12 samples.

Results

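The line-by-temperature interaction asks which rice genes answered the change from high to low temperature differently in TGMS-Co27 and in H1493. For each probe set it is the low-minus-high difference in log2 signal in TGMS-Co27 minus the same difference in H1493, computed over all 12 arrays. A positive value means that the low-temperature level relative to the high-temperature level was higher in TGMS-Co27 than in H1493, and a negative value means the opposite. The genes described are those of the 24891 bright probe sets, whose log2 signals averaged 6 or more over the arrays, out of 57258 tested, and 277 of them were called.

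H1493 is the wild-type japonica variety Hejiang 19. TGMS-Co27 is a transgenic line made in it, in which the transgene cosuppresses Ugp1 (UDP-glucose pyrophosphorylase, which makes the UDP-glucose used for sucrose, cellulose and callose). TGMS-Co27 is male sterile when grown warm and fertile when grown cool, and H1493 is fertile in both. The 4 groups of 3 arrays each were H1493 and TGMS-Co27 florets from plants at 28°C (H1493HT and Co27HT) and at 20°C (H1493LT and Co27LT), taken at the meiosis stage from field-grown plants and hybridised to Affymetrix rice arrays. TGMS-Co27 is 1 transgenic line, so effects of that line cannot be told apart from those of the silenced gene. Field, season and day length changed together with temperature in both lines, so these cannot be told apart either, and "temperature" below stands for all of them. The labels name 3 biological replicates per group without saying which plants they came from, so the p-values measure the spread between these samples.

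Thermosensitive genic male sterility lines set no functional pollen above a critical temperature and recover below it, which lets a single line serve for hybrid seed production and for its own multiplication. Pollen development depends on the tapetum, the anther layer that feeds the microspores and is sensitive to temperature, and on the callose wall around the meiocytes. Cool temperatures are read by plants through calcium signals and CBF/DREB1 transcription factors, and jasmonate signalling, needed for anther maturation, is held back by JAZ repressors of the TIFY family.

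Ugp1 checked the labels. On the log2 scale its probe set (LOC_Os09g38030) read 13.42, 13.43 and 13.36 on the H1493HT arrays and 11.36, 11.39 and 11.44 on the Co27HT arrays. At low temperature it read 13.62, 13.64 and 13.57 in H1493 and 12.91, 12.89 and 12.86 in TGMS-Co27. The TGMS-Co27 arrays were thus below every H1493 array at both temperatures, by 2.01 at high and by 0.72 at low temperature. The Ugp1 signal rose 2.81-fold from high to low temperature in TGMS-Co27, against 1.15-fold in H1493 (adjusted p = 0.075), and its interaction was 1.29 ± 0.10 (± SE here and below, n = 3 arrays per group, limma adjusted p = 0.0011). By qRT-PCR the paper reports that endogenous Ugp1 stayed strongly suppressed in TGMS-Co27 at both temperatures. Total Ugp1 mRNA, which includes transgene transcripts, was higher there at low temperature. For TGMS-Co27 at both temperatures the paper also reports a slight, unexpected increase of this total, which it proposes may be partly an artefact. Correctly spliced transgene mRNA was more abundant at low temperature by semi-quantitative RT-PCR, and a northern blot did not detect it. Which of these transcripts the probe set reads was not tested.

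The array also carries 64 reporter probe sets for sequences that are not rice genes, of which 2 were bright. RPTR-Os-K01193-1_at read 14.08, 14.13 and 14.18 in Co27HT and 14.42, 14.29 and 14.35 in Co27LT. In H1493 it read 3.31, 3.88 and 0.40 at high temperature but 8.19, 8.48 and 8.15 at low temperature. The H1493LT arrays therefore carried this signal at 1.487% of the mean linear signal of Co27LT, against 0.0414% in H1493HT. The second probe set, RPTR-Os-A00196-1_s_at, read 8.68, 9.05 and 9.22 in Co27HT, 9.89, 9.93 and 9.93 in Co27LT, 2.31, 2.86 and 1.85 in H1493HT and 2.86, 2.39 and 5.23 in H1493LT. The part of the H1493LT signal in the results that follow was not tested. The first reporter is itself among the 277 called probe sets (-5.52 ± 1.03, adjusted p = 0.049), a size that also depends on its readings near background in H1493HT.

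The tissue label was checked against fixed markers. All 7 stamen and floret identity genes measured (MADS2, MADS3, MADS4, MADS7, MADS8, MADS58 and SPW1) were called present on 12 arrays, with interactions between -0.31 and -0.02. Of 8 meiocyte genes, 7 were present on 12 arrays, and their interactions lay between -0.37 and 0.69. Of 8 tapetum genes, 3 were present on 12 arrays and RTS, a tapetum gene of rice, on 0. No gene of these 3 groups was called. The summed tapetum signal was 11.43 to 11.51 on the log2 scale in H1493HT, 11.17 to 11.38 in Co27HT, 11.02 to 11.14 in H1493LT and 10.63 to 10.73 in Co27LT. Fewer cells of a type and less RNA per cell cannot be told apart in these bulk samples. Summed signal of 5 green-tissue genes was 13.08 to 13.28 in H1493HT, 11.95 to 12.15 in Co27HT, 15.10 to 15.13 in H1493LT and 14.45 to 14.50 in Co27LT, so the sum was lower in TGMS-Co27 at both temperatures and higher at low temperature in both lines. CAB2R, LHCP and PORA carried this pattern. RBCS went the other way, with means of 10.27 in H1493HT and 9.14 in H1493LT and of 10.14 in Co27HT and 8.596 in Co27LT, and RBCS1 was called present on 1 array. The part of the green-tissue signal in the results was not tested.

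For most probe sets the responses of the lines differed by less than 2-fold. A call here and below means an adjusted p under 0.05 together with a change of 2-fold or more, which is 1 on the log2 scale. Of the bright probe sets, 6003 (24.1%) passed this between temperatures in TGMS-Co27 (13.5% up and 10.7% down at low temperature) and 4910 (19.7%) did so in H1493 (10.0% up and 9.73% down). The interaction stayed under 1 in size for 96.55% of them, with quartiles of -0.22 and 0.25. It was called for 277 (1.11%), of which 192 (0.771%) were positive and 85 (0.341%) negative. The median size of the called interactions was 1.42 in the positive and 1.30 in the negative direction. Of the 277, 235 were called present on all 12 arrays.

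The share of positive calls, 69.31% here, depended on the scaling of the arrays. It was 84.38% (162 positive, 30 negative) when each array was centred on its median over all probe sets, which shifted the median interaction by 0.104, and 58.56% (154 and 109) when centred over the bright probe sets. Calls also moved with single arrays. Negative calls fell in every fit that left out 1 array, and positive calls in all but that without Co27HT replicate 3 (208). Without H1493LT replicate 1, 2 or 3 the negative calls were 53, 53 and 52, and the positive calls 143, 127 and 134. Without Co27LT replicate 1, 2 or 3 the negative calls were 64, 62 and 61, and the positive calls 130, 139 and 129. Over the 12 fits that each left out 1 array, 176 to 233 of the 277 probe sets were still called.

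**Figure D1:**
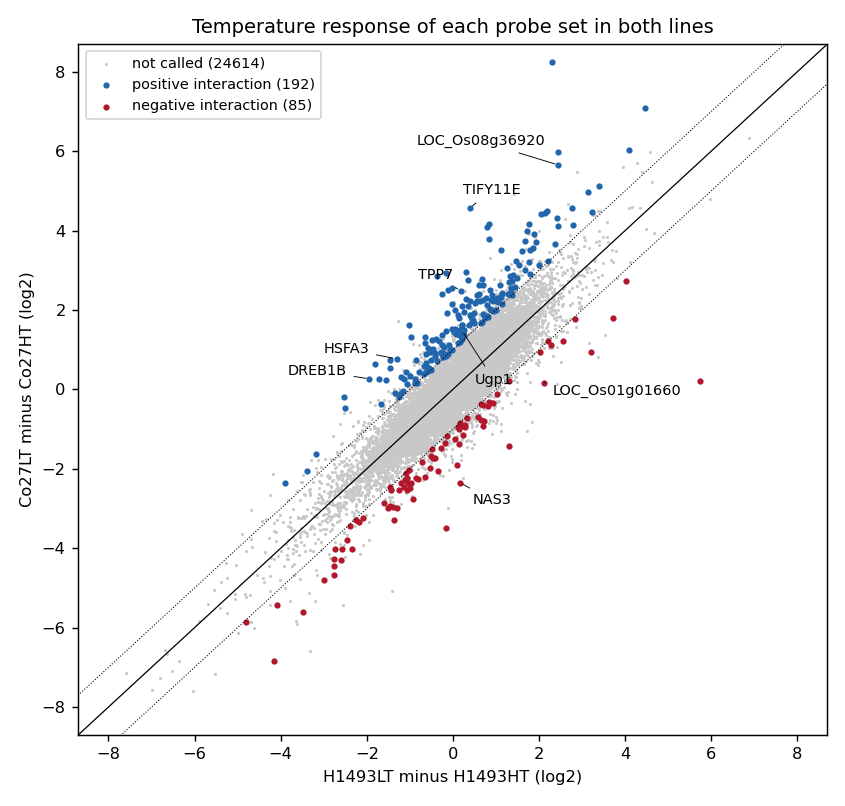
Log2 response to low temperature (low minus high) in H1493 on the horizontal axis and in TGMS-Co27 on the vertical axis, 1 point per bright probe set. Called interactions are coloured (192 positive, 85 negative), and most lie where both lines moved the same way or where TGMS-Co27 moved more.

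The 277 probe sets fell into a few response shapes. In 110 the temperature response was called in TGMS-Co27 and not in H1493. Of these, 88 were positive, with a median response of 1.86 in TGMS-Co27 and 0.25 in H1493, and 22 were negative, with medians of -1.78 and -0.38. In another 88 both lines responded in the same direction and TGMS-Co27 responded more. Of these, 53 rose (median 3.23 in TGMS-Co27 and 1.67 in H1493) and 35 fell (-3.24 and -1.60). Larger responses in H1493 than in TGMS-Co27 were fewer, with 9 probe sets called in both lines and 24 called in H1493 and not in TGMS-Co27. Neither line's response reached the call in 44 probe sets, and 2, neither assigned to a gene, moved in opposite directions. Of 6997 probe sets called between temperatures in either line, 233 (3.33%) were called for the interaction.

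The interaction can also be read as a change in the difference between the lines. Of the 192 positive probe sets, 92 were called higher in TGMS-Co27 at low temperature (median difference 1.499) without a called difference at high temperature, and 39 were called lower in TGMS-Co27 at high temperature (median -1.30) without one at low temperature. Both held for 4, TIFY11E, the AP2-domain gene LOC_Os08g36920, LOC4349148 and LOC4341678. Of the 85 negative probe sets, 45 were called lower in TGMS-Co27 at low temperature (median -1.36) and 4 were called higher in it at high temperature, among them NAS3. No line difference was called at either temperature for 56 of the positive and 35 of the negative probe sets. Over all bright probe sets, 0.787% were called between the lines in the warm (0.205% higher and 0.583% lower in TGMS-Co27) and 1.21% in the cool (0.775% higher and 0.430% lower).

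JAZ repressors of the jasmonate pathway held the largest interaction of any named gene. JAZ proteins bind and block the transcription factors that jasmonate activates, and are degraded when the hormone is sensed through COI1. TIFY11E (also JAZ13) read 8.11, 8.41 and 8.12 in H1493HT, 6.356, 6.562 and 6.495 in Co27HT, 8.56, 8.44 and 8.80 in H1493LT and 11.137, 11.002 and 10.973 in Co27LT. The Co27HT arrays were thus the lowest and the Co27LT arrays the highest, and no group overlapped either of these. TIFY11E rose 23.7-fold in TGMS-Co27, against 1.31-fold in H1493 (adjusted p = 0.053), and its interaction was 4.18 ± 0.18 (adjusted p = 0.00012).

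All 5 TIFY11 genes were called positive, a subset singled out after the values were seen. TIFY11B read 10.43, 10.49 and 10.47 in H1493HT, 10.03, 9.93 and 10.01 in Co27HT, 10.43, 10.40 and 10.52 in H1493LT and 12.63, 12.57 and 12.46 in Co27LT. Only the Co27LT arrays stood apart upwards, 5.91-fold above Co27HT, and the interaction was 2.58 ± 0.12 (adjusted p = 0.00012), with 2.62 ± 0.19 at a second probe set of the gene. TIFY11A differed in that H1493 was 1.56-fold lower at low temperature while TGMS-Co27 rose 2.23-fold. It read 9.46, 9.37 and 9.27 in H1493HT, 8.84, 8.64 and 8.69 in H1493LT, 9.15, 8.96 and 9.04 in Co27HT and 10.16, 10.16 and 10.29 in Co27LT. Its interaction was 1.80 ± 0.14 (adjusted p = 0.00098). TIFY11D had an interaction of 1.46 ± 0.19 and rose 2.85-fold in TGMS-Co27, against 1.04-fold in H1493. TIFY11C had an interaction of 1.005 ± 0.11 (adjusted p = 0.0045) and was 1.79-fold lower at low temperature in H1493, under the threshold for a call. In the RefSeq annotation of assembly ASM3414082v1, TIFY11A, TIFY11C and TIFY11B are direct neighbours on chromosome 3, and 3 genes lie between TIFY11E and TIFY11D on chromosome 10. Probe sets of such close relatives can share signal, which was not tested.

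Of 29 jasmonate genes measured, TIFY11 genes included, 6 were called positive and 0 negative (20.7%), against 1.95% of the 2049 named genes called in either direction (1.66% positive and 0.293% negative), and the median interaction was 0.36, against -0.01 over the named genes. The sixth was TIFY10A (1.02 ± 0.14, adjusted p = 0.013). TIFY10C reached an adjusted p of 0.021 with an interaction of 0.70, below the size needed, and the other 5 of 7 JAZ genes outside TIFY11 were not called. Among 9 enzymes of jasmonate synthesis and conjugation, such as AOS, AOC, OPR1 and LOX2, 0 were called by limma, with interactions from -0.43 to 0.98. The receptors COI1a, COI1b and COI2 and the adaptor NINJA1 lay between -0.24 and -0.04. TIFY10A and TIFY11C fell short of the size needed when arrays were centred over the bright probe sets. Each also did so without Co27HT replicate 1, Co27LT replicate 1 or H1493HT replicate 1, and TIFY11C without Co27HT replicate 3 or H1493LT replicate 2, with interactions over all such fits of at least 0.94 for TIFY10A and 0.98 for TIFY11C.

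**Figure D2:**
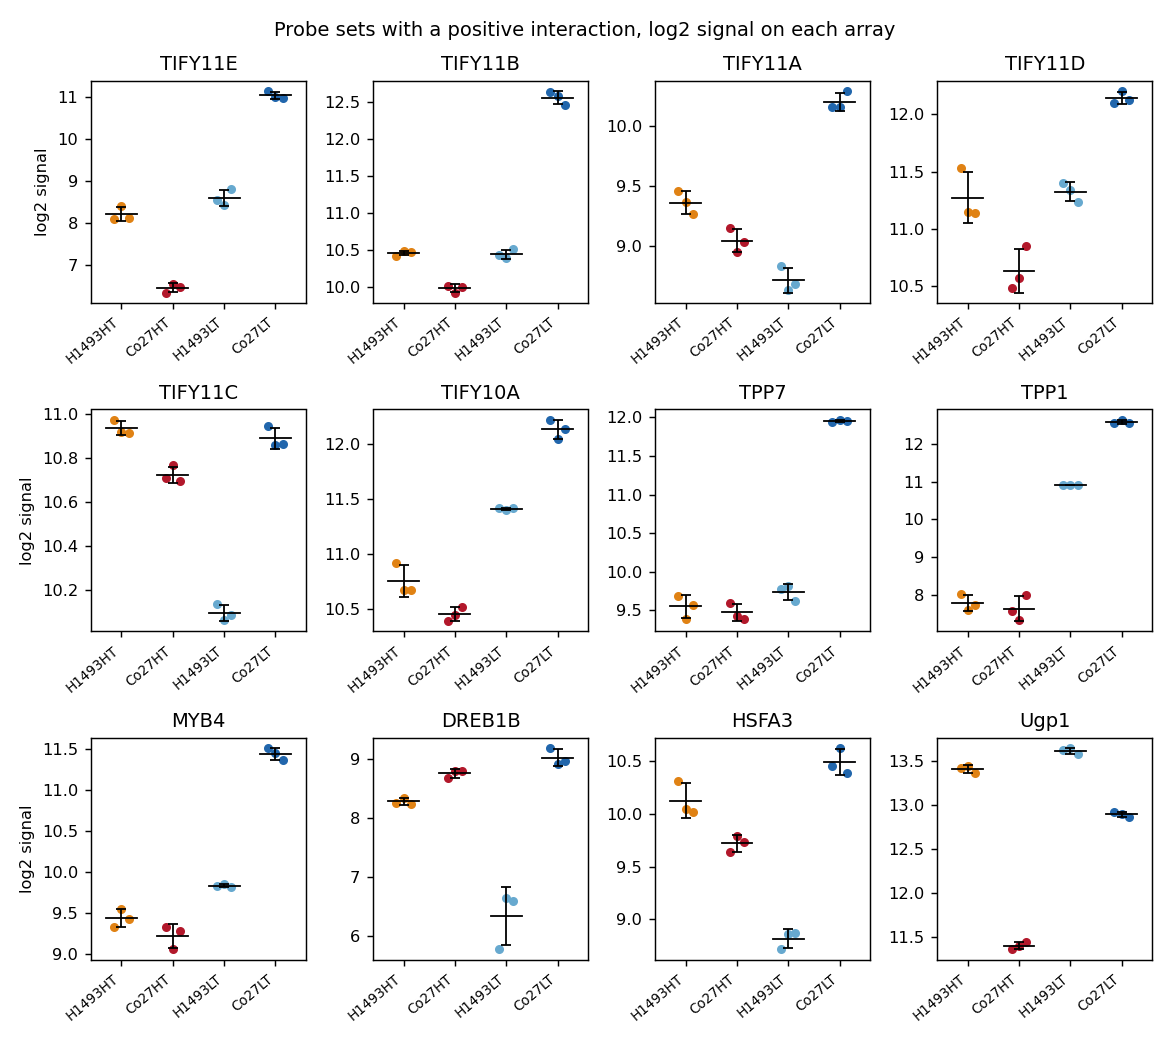
Log2 signal of 12 genes with a called positive interaction on each array (points), by group (H1493HT, Co27HT, H1493LT, Co27LT), with the group mean (black bar) and SD (error bar, n = 3). In the TIFY11 panels Co27LT is the highest group for TIFY11E, TIFY11B, TIFY11A and TIFY11D, and Ugp1 is lowest in Co27HT.

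Genes of the cold and dehydration response were also called in the positive direction. Of 22 measured, 4 were called positive and 0 negative (18.2%, against 1.95% of named genes), with a median interaction of 0.51. An interaction of 2-fold or more with an unadjusted limma p under 0.05 was found for 6, against 640 of the 24891 bright probe sets. In H1493, 4 of the 22 rose and 11 fell at low temperature, and in TGMS-Co27 7 rose and 4 fell. Among all named genes 10.4% rose and 10.5% fell in H1493, and 13.8% rose and 11.4% fell in TGMS-Co27. TPP7, a trehalose-6-phosphate phosphatase, read 9.69, 9.39 and 9.57 in H1493HT, 9.60, 9.43 and 9.39 in Co27HT, 9.78, 9.81 and 9.62 in H1493LT and 11.94, 11.97 and 11.95 in Co27LT. The other groups lay together and Co27LT lay above all of them, with a 5.58-fold rise in TGMS-Co27 and an interaction of 2.29 ± 0.15 (adjusted p = 0.00059). TPP1, of the same enzyme family, rose in both lines. It read 8.03, 7.61 and 7.72 in H1493HT, 7.56, 7.34 and 7.99 in Co27HT, 10.92, 10.93 and 10.92 in H1493LT and 12.55, 12.65 and 12.56 in Co27LT. The rise was 8.81-fold in H1493 and 31.0-fold in TGMS-Co27 (interaction 1.82 ± 0.24, adjusted p = 0.011). Of 5 trehalose genes measured these were the 2 called, and TPP2 had an interaction of 0.94 (adjusted p = 0.088).

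The transcription factors of this list took different shapes. MYB4, a MYB factor of the cold response, rose 4.68-fold in TGMS-Co27 and read 1.32-fold higher in H1493 at low temperature, under the size for a call. Its interaction was 1.83 ± 0.14 (adjusted p = 0.0011), and a second, dimmer probe set gave 1.12 ± 0.37 (adjusted p = 0.24). DREB1B, of the CBF/DREB1 family that binds the cold-response element, fell in H1493 instead. It read 8.25, 8.34 and 8.24 in H1493HT, 5.78, 6.64 and 6.60 in H1493LT, 8.67, 8.79 and 8.80 in Co27HT and 9.18, 8.91 and 8.97 in Co27LT. The 3.83-fold drop in H1493 stood against a 1.20-fold difference in TGMS-Co27 (interaction 2.20 ± 0.30, adjusted p = 0.013). DREB1E had an interaction of 1.45 (adjusted p = 0.067) and DREB1A one of 0.91 (adjusted p = 0.11), and the dehydrins RAB16B, RAB21 and RAB16C lay between -0.53 and 0.33. DREB1B was also the 1 of 13 ethylene-list genes called (7.69%, against 1.95% of named genes), since that list takes in ERF names.

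Calcium sensors and their kinases gave 5 positive and 0 negative calls among 68 genes (7.35%, against 1.95% of named genes), with a median of 0.12. The member with the interaction of greatest size, CIPK05, had -1.61 ± 0.52 and was not called (adjusted p = 0.23). CML15 and CML27 are calmodulin-like proteins, CPK21 is a calcium-dependent kinase and CIPK21 a kinase driven by calcineurin B-like sensors. CPK21 read 6.19, 6.10 and 6.58 in H1493HT, 7.11, 7.07 and 6.91 in Co27HT, 7.75, 7.71 and 7.63 in H1493LT and 9.97, 9.80 and 9.99 in Co27LT. It was higher in TGMS-Co27 at both temperatures and rose 7.42-fold in it, against 2.64-fold in H1493 (interaction 1.49 ± 0.19, adjusted p = 0.010), a call lost under centring over all probe sets (adjusted p = 0.051). CIPK21 rose 2.65-fold in TGMS-Co27 and was 1.07-fold higher in H1493 (interaction 1.30 ± 0.14). CML27 rose 6.03-fold in TGMS-Co27 and 2.72-fold in H1493 (1.15 ± 0.17), and CML15 had 1.56 ± 0.24. The fifth, CML16, had 1.0 ± 0.12. The EF-hand gene LOC_Os09g24580, outside the list, rose 4.42-fold in TGMS-Co27 and differed 1.01-fold in H1493 (adjusted p = 0.99), with an interaction of 2.15 ± 0.30. With 1 array left out CML15 stayed called in 3 of 12 fits (adjusted p up to 0.076, lost without any H1493LT or Co27LT array, Co27HT replicate 1 or 2, or H1493HT replicate 3). CML27 stayed called in 9 (up to 0.058, lost without Co27LT replicate 1 or 3 or H1493LT replicate 3), and LOC_Os09g24580 in 9 (up to 0.051, lost without Co27LT replicate 1 or 3 or H1493LT replicate 2).

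BC1L9 is a COBRA-like gene, a relative of the brittle culm gene that affects cellulose. It was the 1 call among 38 cell wall genes (2.63%), a share near the 1.95% of named genes. BC1L9 read 8.85, 8.76 and 8.72 in H1493HT, 6.858, 7.166 and 6.996 in Co27HT, 12.87, 12.91 and 12.78 in H1493LT and 13.04, 13.03 and 13.08 in Co27LT. The lines differed mainly at high temperature, where TGMS-Co27 was lower, and the gene rose 65.8-fold in TGMS-Co27 and 16.9-fold in H1493 (interaction 1.96 ± 0.14, adjusted p = 0.00072). The second probe set gave 2.62 ± 0.36, a size that depends on signals near background in Co27HT, and 1.70 when signals were floored at 5. A family 16 glycosyl hydrolase, LOC_Os04g51460, rose 11.4-fold in TGMS-Co27 and 2.18-fold in H1493 (2.39 ± 0.24), and 4CL5, a 4-coumarate-CoA ligase of phenylpropanoid synthesis, rose 6.92-fold in TGMS-Co27 with 1.60-fold in H1493, under the size for a call (2.11 ± 0.24).

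LOC_Os08g36920, which encodes an AP2-domain protein, read 6.94, 7.08 and 7.66 in H1493HT, 6.09, 6.44 and 5.89 in Co27HT, 9.77, 9.68 and 9.58 in H1493LT and 11.86, 11.78 and 11.75 in Co27LT. It was lowest in Co27HT and highest in Co27LT, and rose 50.3-fold in TGMS-Co27 and 5.46-fold in H1493 (interaction 3.20 ± 0.28, adjusted p = 0.0017). WRKY71, a defence-related WRKY factor and the 1 call among 12 defence genes (8.33%, against 1.95% of named genes), rose 9.36-fold in TGMS-Co27 and 2.76-fold in H1493 (1.76 ± 0.13), and its second probe set was also called (1.29 ± 0.21). The chitinase gene Chia1d of the same list lay on the other side of 0 (-2.19 ± 0.45) and was not called (adjusted p = 0.066). The CCCH zinc finger gene C3H33 and EL2, a cell cycle inhibitor induced by elicitors, gave interactions of 1.29 ± 0.13 and 1.22 ± 0.15 although neither line's response reached the size for a call. Both were above their high-temperature mean in TGMS-Co27 (1.59-fold and 1.49-fold) and below it in H1493 (1.53-fold and 1.56-fold). A second probe set of EL2 gave 0.71 (adjusted p = 0.032), while that of C3H33 was called (1.14).

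Further positive genes had less certain identities or calls. LOC_Os01g72360, described only as a protein, rose 16.9-fold in TGMS-Co27 and was 1.74-fold higher in H1493 (3.28 ± 0.48, adjusted p = 0.019). Its call was lost without any 1 of the 3 H1493LT or 3 Co27LT arrays (adjusted p up to 0.062), and the gene was present on 9 arrays. LOC_Os03g07590, a hypothetical protein, read 9.56, 9.59 and 9.64 in H1493HT, 8.22, 8.47 and 8.42 in Co27HT, 11.16, 11.21 and 11.21 in H1493LT and 11.83, 11.86 and 11.88 in Co27LT (interaction 1.88 ± 0.12). It was thus lower in TGMS-Co27 when warm and higher in it when cool. LOC_Os01g28790, described as a PRAS-rich protein, had 1.08 ± 0.13. ABA8ox1, which inactivates abscisic acid, was the 1 call among 16 abscisic acid genes (6.25%, against 1.95% of named genes). It had 1.14 ± 0.14, a call lost under centring over all probe sets (adjusted p = 0.051). LOC_Os02g35600, a PHD finger gene by its locus but paired with a gene record on another chromosome, had 1.21 ± 0.18. A brighter probe set of that gene record gave -0.07 (adjusted p = 0.85), and 6 of its 12 fits with 1 array left out lost the call (without Co27HT replicate 2, Co27LT replicate 1 or 3, or any H1493LT array, adjusted p up to 0.067).

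Positive interactions also arose where H1493 fell and TGMS-Co27 fell less. SAT1, a serine acetyltransferase of cysteine synthesis, read 12.39, 12.56 and 12.60 in H1493HT, 11.66, 11.68 and 11.45 in Co27HT, 10.88, 10.86 and 10.80 in H1493LT and 11.28, 11.20 and 11.20 in Co27LT. TGMS-Co27 lay below H1493 at high and above it at low temperature, with a 3.18-fold drop in H1493 and a 1.29-fold difference in TGMS-Co27 (interaction 1.30 ± 0.14), while a second, dimmer probe set gave -0.25 (adjusted p = 0.82). The BTB-domain gene LOC_Os08g01320 fell 8.98-fold in H1493 and 3.07-fold in TGMS-Co27 (1.55 ± 0.15).

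Heat shock genes were called both ways, with 1 positive and 2 negative calls among 28 (10.7%, against 1.95% of named genes) and a median of -0.08. HSFA3, a heat shock factor, read 10.31, 10.04 and 10.01 in H1493HT, 9.64, 9.79 and 9.73 in Co27HT, 8.71, 8.86 and 8.87 in H1493LT and 10.46, 10.62 and 10.38 in Co27LT. It fell 2.48-fold in H1493 at low temperature but was 1.70-fold higher in TGMS-Co27 (interaction 2.08 ± 0.16, adjusted p = 0.00098). The small heat shock protein gene HSP16.9B fell 2.77-fold in TGMS-Co27 and was 1.21-fold lower in H1493 (-1.20 ± 0.18), a call kept in 4 of 12 fits with 1 array left out (adjusted p up to 0.075, lost without Co27HT replicate 1 or 2, Co27LT replicate 1 or 3, H1493HT replicate 1 or 2, or H1493LT replicate 1 or 2) and lost under centring over all probe sets. The other negative call was on a gene record that merges HSFA2C with ARD1, an acireductone dioxygenase, and which of them the probe set measures is uncertain. It rose 4.87-fold in H1493 and 2.20-fold in TGMS-Co27 (-1.15 ± 0.11), while a probe set of the same record assigned to the heat shock factor locus gave 1.81 ± 0.67 (adjusted p = 0.29). The chaperone genes HSP81-1, HSP81-2, HSP81-3, BIP1 and CLPB1 lay between -0.11 and 0.08.

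Among negative interactions, the largest of a named gene was that of NAS3, nicotianamine synthase, whose product chelates iron and zinc for transport in the plant. NAS3 read 8.05, 8.07 and 8.19 in H1493HT, 10.26, 10.18 and 10.06 in Co27HT, 8.19, 8.43 and 8.16 in H1493LT and 7.67, 7.80 and 7.97 in Co27LT. The Co27HT arrays were above all others by more than any spread within a group, and NAS3 fell 5.09-fold in TGMS-Co27 with a 1.12-fold difference in H1493 (interaction -2.51 ± 0.17, adjusted p = 0.00059). NRAMP5, a manganese and iron transporter, read 7.16, 7.41 and 7.27 in H1493HT, 8.16, 8.03 and 8.18 in Co27HT, 8.40, 8.35 and 8.15 in H1493LT and 8.04, 7.86 and 8.12 in Co27LT. H1493HT alone was low, so NRAMP5 rose 2.03-fold in H1493 (interaction -1.14 ± 0.16, adjusted p = 0.017). These were the 2 calls among 27 iron and nicotianamine genes (7.41%), both negative, against 1.95% of named genes called and 0.293% called negative, and the list's median was -0.10. ZIP1 came next to the threshold (-0.96, adjusted p = 0.043), VIT2 had -1.25 (adjusted p = 0.20), and the record of the iron-deficiency factors IRO2 and IRO3 (OsbHLH063) had 0.72 (adjusted p = 0.13). The NRAMP5 call was lost without Co27LT replicate 1 or H1493LT replicate 1 or 2 (adjusted p up to 0.060) and under centring over all probe sets.

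**Figure D3:**
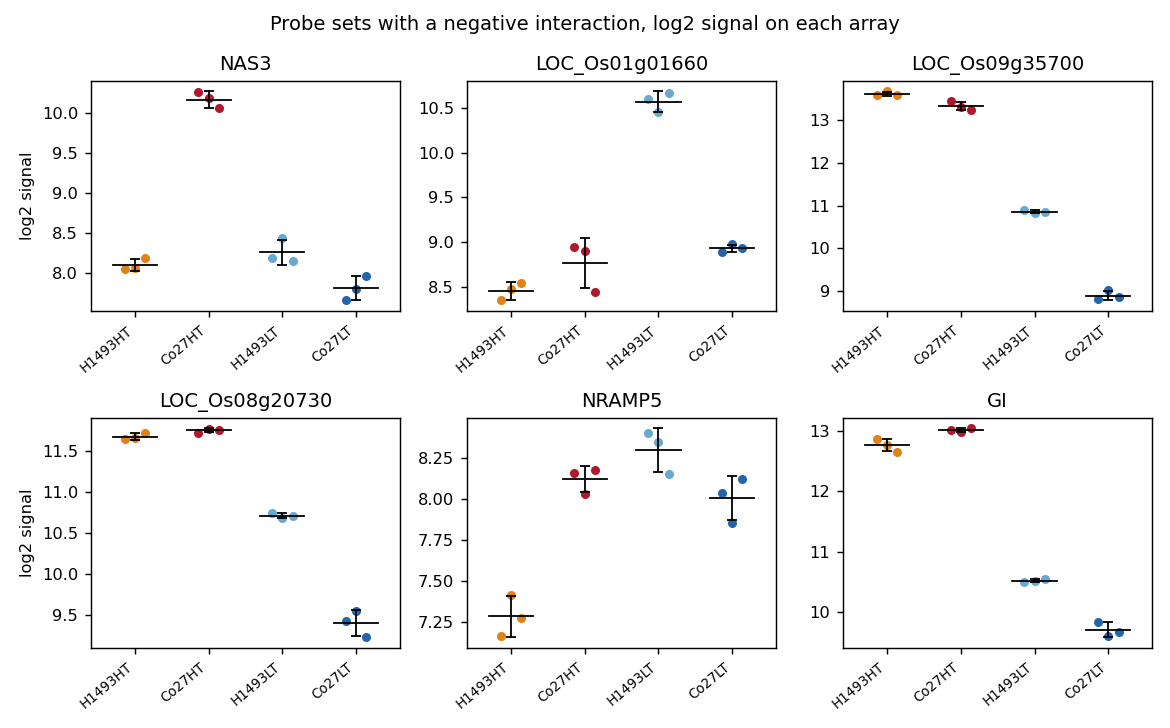
Log2 signal of 6 genes with a called negative interaction on each array (points), by group, with the group mean (black bar) and SD (error bar, n = 3). NAS3 is high in Co27HT only, LOC_Os01g01660 is high in H1493LT only, and LOC_Os09g35700, LOC_Os08g20730 and GI fall at low temperature in both lines, further in TGMS-Co27.

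LOC_Os01g01660, described as an isoflavone reductase, was high in 1 group only. It read 8.35, 8.47 and 8.54 in H1493HT, 8.95, 8.90 and 8.44 in Co27HT, 10.60, 10.45 and 10.67 in H1493LT and 8.89, 8.97 and 8.93 in Co27LT. It rose 4.34-fold in H1493 and was 1.12-fold higher in TGMS-Co27 (interaction -1.95 ± 0.20, adjusted p = 0.0037). APRL1, an adenosine 5'-phosphosulfate reductase-like gene, rose in both lines and more in H1493 (16.1-fold against 6.66-fold, interaction -1.27 ± 0.19). Its second probe set gave -0.9995 with an adjusted p of 0.023, just under the size needed, and the call at the first was kept in 3 of 12 fits with 1 array left out (adjusted p up to 0.067, lost without any H1493LT or Co27LT array, Co27HT replicate 1 or 2, or H1493HT replicate 2). It was also lost under centring over all probe sets.

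The larger group of negative genes fell further in TGMS-Co27. LOC_Os09g35700, described as a lipid transfer family protein (LTPL45), read 13.58, 13.67 and 13.59 in H1493HT, 13.44, 13.31 and 13.25 in Co27HT, 10.89, 10.82 and 10.84 in H1493LT and 8.81, 9.02 and 8.85 in Co27LT. The lines were close when warm and far apart when cool, with a 21.7-fold drop in TGMS-Co27 and a 6.78-fold drop in H1493 (interaction -1.68 ± 0.13, adjusted p = 0.00098). Its locus and its gene record lie on different chromosomes, and a second probe set of that record gave -0.08. LOC_Os08g20730, a peroxidase precursor, fell 5.11-fold in TGMS-Co27 and was 1.95-fold lower in H1493 (-1.39 ± 0.13), and a dimmer probe set of its gene record gave -0.0021. A nucleotide pyrophosphatase/phosphodiesterase gene, LOC_Os08g41880, fell 7.98-fold and 2.84-fold (-1.49 ± 0.17), and an oxidoreductase gene, LOC_Os07g34570, 7.32-fold and 3.04-fold (-1.27 ± 0.17). A galactosyltransferase gene, LOC_Os05g35266, fell 3.31-fold in TGMS-Co27 and was 1.34-fold lower in H1493 (-1.30 ± 0.17), a call lost under centring over all probe sets (adjusted p = 0.072).

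Several negative calls were lost when single arrays were left out. The ranges of interactions given here do not measure stability, since these probe sets were chosen for large interactions on the same arrays. The mini zinc finger gene MIF2 fell 5.82-fold in TGMS-Co27 and 2.69-fold in H1493 (-1.11 ± 0.19, adjusted p = 0.035) and stayed called in 2 of 12 fits with 1 array left out, those without Co27HT replicate 3 or Co27LT replicate 3 (interactions from -1.21 to -1.04 over the 12 fits, adjusted p up to 0.097). LOC_Os02g15860 (-1.56 ± 0.24) stayed called in 4, lost without Co27HT replicate 2, Co27LT replicate 1 or 3, H1493HT replicate 1 or 3, or any H1493LT array (interactions from -1.69 to -1.42, adjusted p up to 0.079). LOC_Os03g15920 (-1.28 ± 0.19) stayed called in 9, lost without H1493HT replicate 1 or H1493LT replicate 1 or 2 (interactions from -1.352 to -1.14, adjusted p up to 0.061). Both are described only as proteins. The ribosome-inactivating protein gene LOC_Os10g24050 (-1.52 ± 0.28, adjusted p = 0.049) stayed called in 1, the fit without H1493HT replicate 1 (interactions from -1.68 to -1.32, adjusted p up to 0.13). Centring over all probe sets also ended the calls of MIF2, LOC_Os03g15920 and LOC_Os10g24050, and that of LOC_Os10g24050 was lost without probe sets ending in _x_at or _s_at.

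Clock genes of the morning and evening loops were called in opposite directions. CCA1, a MYB factor that peaks at dawn, read 12.01, 11.93 and 11.97 in H1493HT, 10.64, 10.84 and 10.90 in Co27HT, 13.97, 13.99 and 13.93 in H1493LT and 13.94, 13.90 and 13.97 in Co27LT. The lines overlapped at low temperature and differed at high temperature, and CCA1 rose 8.82-fold in TGMS-Co27 and 3.98-fold in H1493 (interaction 1.15 ± 0.13, adjusted p = 0.0053). GI, which CCA1-type factors repress in Arabidopsis, read 12.87, 12.77 and 12.66 in H1493HT, 13.02, 12.98 and 13.04 in Co27HT, 10.51, 10.52 and 10.54 in H1493LT and 9.85, 9.61 and 9.68 in Co27LT. It fell 9.85-fold in TGMS-Co27 and 4.73-fold in H1493 (-1.06 ± 0.13, adjusted p = 0.0098), a call lost under quantile normalization and under centring over all probe sets. They were 2 of 14 clock and flowering-time genes (14.3%, against 1.95% of named genes), and the other 12, PRR1, PRR37, PRR73, PRR95 and the phytochromes among them, lay between -0.51 and 0.42. The time of day of sampling is not given in the sources used here, so its part could not be tested.

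Of 14 light harvesting and chlorophyll genes, 6 rose and 1 fell when cool in TGMS-Co27, and 5 rose and 1 fell in H1493. Among all named genes 13.8% rose and 11.4% fell in TGMS-Co27, and 10.4% rose and 10.5% fell in H1493. For the interaction 1 of the 14 was called (7.14%, against 1.95% of named genes). CAB2R, a chlorophyll-binding protein of the antenna, read 11.26, 11.52 and 11.69 in H1493HT, 9.73, 9.54 and 9.44 in Co27HT, 14.22, 14.33 and 14.28 in H1493LT and 13.73, 13.70 and 13.73 in Co27LT. TGMS-Co27 lay below H1493 at both temperatures and more so when warm (interaction 1.37 ± 0.18, adjusted p = 0.011). A second probe set of CAB2R gave -0.08 (adjusted p = 0.88), so the gene's probe sets disagree. PORA, CHLP and CAO of chlorophyll synthesis had interactions of 0.73, 0.70 and 0.80 with adjusted p of 0.036, 0.021 and 0.048, under the size needed. The list's median was 0.07, with 8 of 14 above 0, and CAB2R and PORA are also among the green-tissue genes described above.

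No gene was called in 14 of the 26 gene lists, which held 319 entries, 77 of them with an unadjusted limma p under 0.05 and 1 of these also with a 2-fold change. Of the 24891 bright probe sets 640 met both, and their share at that p alone is not given here. The 1 entry that met both was TDR, a tapetum transcription factor, which fell 1.80 on the log2 scale in TGMS-Co27 with a difference of -0.59 in H1493 (interaction -1.21 ± 0.24, adjusted p = 0.061). The tapetum and pollen wall list of 9 genes had a median of -0.35, with 2 members above 0. Its bHLH factors OsbHLH142 and OsbHLH141 (EAT1) had -0.50 and -0.48, and CYP703A3, which makes fatty acid precursors of the pollen wall, had -0.55. The summed tapetum signal given above was also lowest in Co27LT, and its part in these values was not tested. The 4 lipid transfer genes had a median of -0.63, and LTP110-A had an adjusted p of 0.047 at -0.66. The 20 meiosis genes had a median of 0.06, with a range of -0.62 to 0.69.

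Genes of UDP-glucose, sucrose and callose metabolism were not called, with 21 genes between -0.63 and 0.63 and a median of -0.12. The list was built on gene names and does not hold Ugp1, whose record in the annotation has none. Other lists without a call were floral organ and meristem identity (28 genes, median -0.09), DNA replication and cell cycle (60, 0.06), histones (3, -0.21), splicing and mRNA processing (8, -0.15), translation (31, -0.20), RNA silencing (19, -0.05), gibberellin (11, -0.05), auxin (48, 0.01), oxidative stress (35, -0.06) and reference genes (22, -0.18). Among the floral genes MADS14 is measured by 4 probe sets. The dimmest was called (1.79 ± 0.24, adjusted p = 0.013) and the other 3 lay between -0.14 and 0.43. Translation and reference genes lay mostly below 0, with 1 of 31 and 1 of 22 above it.

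**Figure D4:**
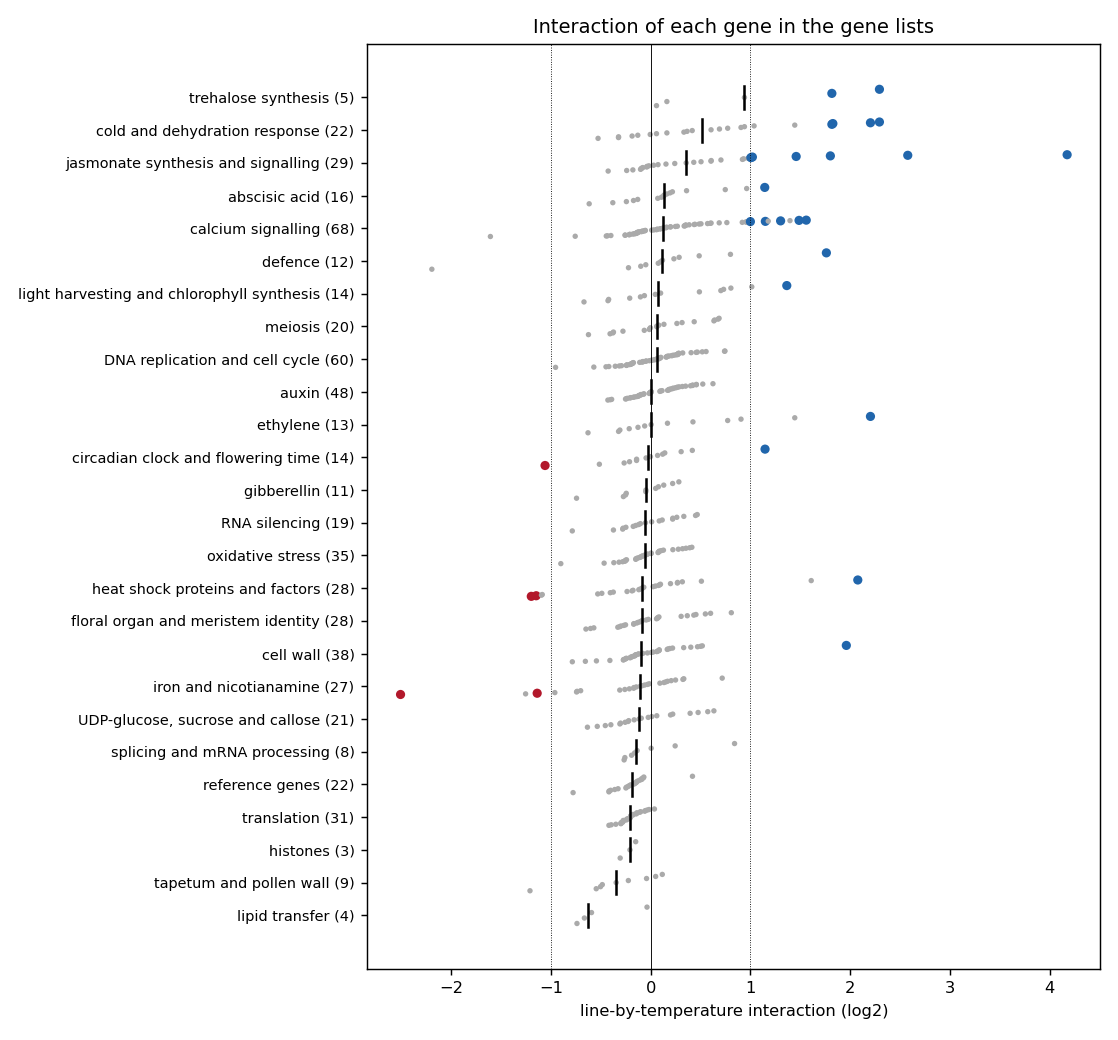
Interaction of each gene in the 26 gene lists (points, log2, 1 bright probe set per gene), with the list median (black bar), the number of genes in parentheses and dotted lines at -1 and 1. Called genes are blue (positive) or red (negative). All calls of the jasmonate, cold, trehalose and calcium lists are positive, and TPP1 and TPP7 stand in both the cold and the trehalose list.

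The study itself related a set of probe sets to thermosensitive sterility. They were chosen on these arrays for a difference between Co27LT and Co27HT. That difference is the TGMS-Co27 part of the interaction, so their counts are not independent of it. Of 178 such probe sets 144 were bright, and 1 was called positive and 1 negative (1.39%), a share near the 1.11% of all bright probe sets. Their median interaction was 0.15, and 44 had an unadjusted p under 0.05, 4 of them also with a 2-fold change. Of all 24891 bright probe sets 640 met both, and their share at that p alone is not given here. The positive one, LOC_Os03g19920, described only as a protein, rose 1.49 on the log2 scale in TGMS-Co27 with 0.25 in H1493 (1.25 ± 0.19, adjusted p = 0.021). The negative one was LOC_Os10g24050, given above. C3H60, a U2AF splicing factor subunit, had an interaction of 0.84 ± 0.15 (adjusted p = 0.038), below the size needed. Its means were 8.95 in H1493HT, 7.21 in Co27HT, 10.57 in H1493LT and 9.67 in Co27LT, so it was lower in TGMS-Co27 at both temperatures. Of the 37 candidates for splicing, tRNA charging and translation, 32 were bright. Of these, 0 were called by limma and 2 had an unadjusted p under 0.05, with interactions from -0.30 to 0.50. The dim candidates lay between -0.23 and 2.35, none called. The highest was a probe set of the zinc finger gene LOC_Os08g40560 (2.35 ± 1.21, adjusted p = 0.47), with a mean log2 signal of 4.34. Another dim probe set of this gene gave 0.91, and its bright ones gave -0.25 and 0.08. The paper reports this gene as lower in TGMS-Co27 when warm and restored when cool. These values cannot decide that pattern, since the largest rests on signals near background.

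Several of the largest interactions belonged to probe sets without a gene name, 9 of the 15 largest positive and 13 of the 15 largest negative. The 4 given here were chosen after their values were seen. A probe set of the OsAffx series, not assigned to a gene, read 8.78, 8.59 and 8.67 in H1493HT, 5.73, 5.58 and 3.31 in Co27HT, 10.981, 11.003 and 10.957 in H1493LT and 13.10, 13.12 and 13.13 in Co27LT. It was the lowest in Co27HT and the highest in Co27LT and had the largest positive interaction (5.94 ± 0.75, adjusted p = 0.0099), where its size depends on signals near background in Co27HT. LOC4335417 rose 62.7-fold in TGMS-Co27 and 5.47-fold in H1493 (3.52 ± 0.23). LOC4348511 read 9.43, 9.55 and 9.48 in H1493HT, 9.54, 9.41 and 8.94 in Co27HT, 9.30, 9.33 and 9.35 in H1493LT and 6.16, 5.51 and 5.72 in Co27LT. Co27LT alone was low (-3.34 ± 0.27, adjusted p = 0.0011). LOC4324640 fell 114-fold in TGMS-Co27 and 17.7-fold in H1493 (-2.69 ± 0.22).

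Across the named genes, more than 1 bright probe set was available for 13 genes. The interactions had the same sign in 9 of them, and all probe sets were called in 4, BC1L9, C3H33, TIFY11B and WRKY71.

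**Figure D5:**
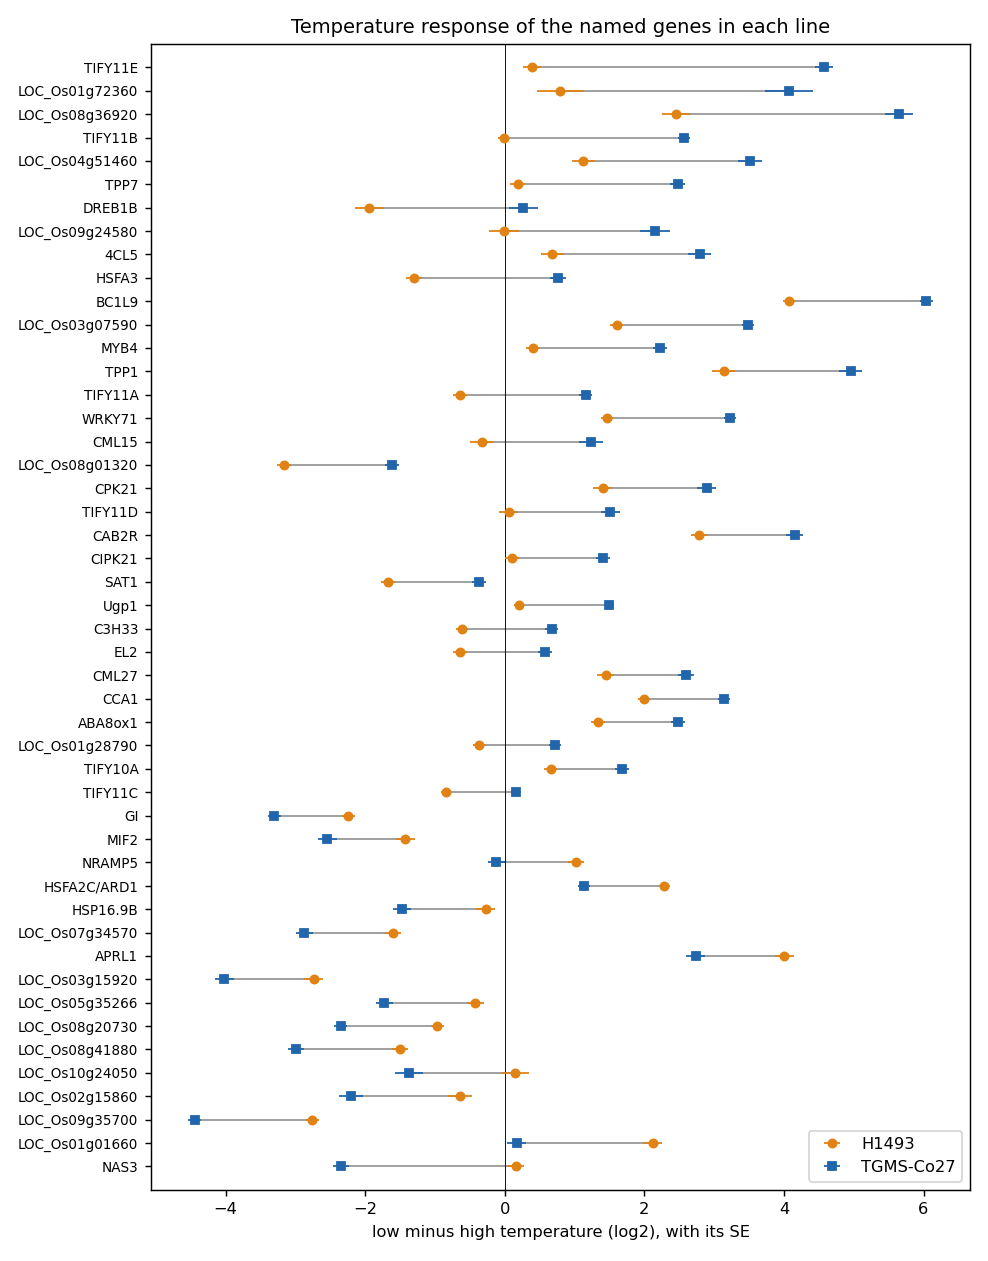
Response to low temperature (low minus high, log2) in H1493 and in TGMS-Co27 for the named genes except LOC_Os02g35600, ordered by interaction, with horizontal bars for the SE of each response. The distance between both points of a gene is its interaction, from 4.18 for TIFY11E to -2.51 for NAS3. No gene has points closer than 1, since a call requires that size.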

How the data were processed

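Florets of H1493 and TGMS-Co27 at 2 temperatures were profiled on 12 Affymetrix rice arrays. The authors deposited, for each probe set, a log2 signal from GeneChip Operating Software (MAS 5.0) and a detection call. The 2% trimmed mean of the linear signals was 500.065 to 500.076 on every array, and the arrays did not share a distribution although the methods name quantile normalization, so the deposited values were kept unchanged. Each array held 545 to 1971 zeros. The number of arrays limits the precision, and interaction values of dim groups are not exact.

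Group means, the interaction, both temperature responses and both line differences were fitted with limma 3.58.1 under R 4.3.3 (lmFit, contrasts.fit, eBayes) on 12 arrays and 57258 probe sets, after 123 controls were left out. Benjamini-Hochberg adjustment ran over all 57258. A call needed an adjusted p under 0.05 together with a change of 2-fold or more. The fit was tested on simulated data.

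Genes came from the platform annotation (1 gene for 22436 probe sets, several for 95, none for 34727), with names from RefSeq assembly ASM3414082v1 and loci and descriptions from the study's supplementary tables. Of 1133 probe sets with both, 21 had locus and gene record on different chromosomes. A gene in a list is its brightest probe set. The 26 lists were matched to symbols and synonyms, and 30 matches that carry a shared symbol of an unrelated gene were left out after values were seen, 0 of them called. Named genes were the 15 largest per direction with a name or described locus, up to 4 per response shape and up to 4 per list, gene IDs without a name passed over. The members and lists were chosen with earlier results of these data known.

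Alternatives were other call rules, fits on brighter probe sets, quantile normalization, median centring, a floor at 5, limma-trend, a replicate block, leaving out _x_at and _s_at probe sets, and each array left out in turn. RefSeq gene positions were used for the order of the TIFY11 genes, and chromosomes for comparing locus with gene record. Sequences were not used.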

Additional observations from a re-analysis of the deposited data

Results flagged for a closer look

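The low-temperature response of 51 named probe sets differed between TGMS-Co27 and H1493 by the limma test of the interaction itself (log2 values, adjusted p under 0.05). Among jasmonate repressors the differences were 4.18 for TIFY11E, 2.58 and 2.62 for the probe sets of TIFY11B, 1.80 for TIFY11A, 1.46 for TIFY11D, 1.02 for TIFY10A and 1.005 for TIFY11C. Cold-response genes gave 2.29 for TPP7, 2.20 for DREB1B, 1.83 for MYB4 and 1.82 for TPP1. Calcium-related genes gave 2.15 for LOC_Os09g24580, 1.56 for CML15, 1.49 for CPK21, 1.30 for CIPK21 and 1.15 for CML27.

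Further positive genes gave 3.20 for LOC_Os08g36920, 2.08 for HSFA3, 1.76 for WRKY71, 1.55 for LOC_Os08g01320, 1.29 for C3H33, 1.22 for EL2, 1.21 for LOC_Os02g35600 and 1.15 for CCA1. Others gave 3.28 for LOC_Os01g72360, 2.62 (1.70 with signals floored at 5) and 1.96 for the probe sets of BC1L9, 2.39 for LOC_Os04g51460, 2.11 for 4CL5, 1.88 for LOC_Os03g07590, 1.37 for CAB2R, 1.30 for SAT1, 1.29 for Ugp1, 1.14 for ABA8ox1 and 1.08 for LOC_Os01g28790.

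In the negative direction NAS3 gave -2.51, LOC_Os01g01660 -1.95, LOC_Os09g35700 -1.68, LOC_Os02g15860 -1.56, LOC_Os10g24050 -1.52, LOC_Os08g41880 -1.49, LOC_Os08g20730 -1.39, LOC_Os05g35266 -1.30, LOC_Os03g15920 -1.28, APRL1 -1.27, LOC_Os07g34570 -1.27, HSP16.9B -1.20, the HSFA2C/ARD1 record -1.15, NRAMP5 -1.14, MIF2 -1.11 and GI -1.06. The reporter probe set RPTR-Os-K01193-1_at, which does not stand for a rice gene, gave -5.52, a size that depends on its readings near background in H1493HT as well as on its signal in H1493LT.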

How the results depend on the processing

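The calls, 192 positive and 85 negative, depended on the rule and the fit. They became 388 and 252 at an unadjusted p, 296 and 179 without a minimum size, 336 and 179 when only bright probe sets were fitted, and 305 and 166 under limma-trend with robust moderation. A floor at 5 gave 128 negative calls, and centring over all probe sets 30. Leaving out 1 array gave 127 to 208 positive and 52 to 79 negative calls. With the replicate number as a block the calls were 107 and 43, but samples of the same number did not deviate together (0 of 18 pairs with a correlation over 0.1, median 0.007), so the numbers do not pair the samples. Quantile normalization and dropping probe sets ending in _x_at or _s_at kept both counts within 1.5 times.

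Of the 51 named probe sets, 37 stayed called with each array left out in turn and 30 under every alternative run. No change of sign was seen among 1013 values, but this does not measure stability. The probe sets were chosen for large interactions on these same arrays. The bright-only fit, limma-trend, the block and the fit without _x_at and _s_at probe sets also leave the interaction value itself unchanged. The block ended 16 calls, centring over all probe sets 10, centring over bright probe sets 2, and quantile normalization 1. The cause was not tested. Only 3 arrays per group and signals near background limit the size of the values.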
